A study of Sorghum bicolor with 8 samples.

Results

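Among the genes of cultured sorghum tissue, a small set was transcribed in every callus library and was all but missing from leaves. The set holds the genes with at least 10 FPKM in each of 6 callus libraries and under 1 FPKM in both Leaf libraries, where FPKM divides a gene's fragment count by its length and by the size of the library. It has 55 genes of 34129 in the files. These values chose the genes, so the gap between leaf and callus is a description here and carries no test.

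RNA was sequenced from 4 groups with 2 libraries each, all from the wild-type line Hiro-1: Leaf, Callus III, Callus II and Callus I. Every callus type was cut from immature embryos of 1 to 2 mm, taken 13 to 15 days after flowering. The embryos had spent 3 weeks at 25 °C in darkness on an induction medium, and the separated types were then subcultured for 20 days. The leaves had regenerated from Callus II on a differentiation medium, in a cycle of 16 h light (2000 lx) and 8 h dark, so tissue, light and medium cannot be told apart in any contrast with Leaf. The series concerns callus with different capacities for regeneration, and the labels do not rank the 3 types.

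Callus is unorganised, dividing tissue, and in cereals it usually grows out of the embryo on medium that contains auxin. In Arabidopsis, callus formation on such medium resembles the start of a lateral root. A leaf, by contrast, is built of differentiated cells, most of them devoted to photosynthesis. The files do not pair identifiers with gene names or functions, and the gene table used here held none of the identifiers. The genes are therefore given by identifier and locus, without roles, and the labelled tissues could not be checked against marker genes. In bulk tissue, fewer cells of a type and less RNA per cell cannot be told apart.

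Totals were of similar size: the sum of FPKM was 595109 and 605150 in Leaf and ran from 643004 to 737291 in callus. Read totals are not given, so absolute depth is unknown. Callus III replicate 1 tended to be the lower of its pair. Replicate 2 was above it for 39 of the 55 genes (70.9%) and for 76.1% of the 5936 other genes with at least 10 FPKM in each callus library. That library also held the lowest callus value of 27 of the 55 genes, a count whose share among the other genes was not computed. Its part in the choice of genes can be measured: without it, the same thresholds gave 77 genes. Dropping a library can only keep or raise this count.

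Genes at 10 FPKM or more in all callus were nearly always present in leaves too. Of 5991 such genes, 5303 (88.5%) had at least 10 FPKM in both Leaf libraries, 535 had a higher Leaf value of 1 to under 10 FPKM, and the 55 made up 0.918%. Leaf values of the 55 were spread from 0 up to the threshold, with medians of 0.224 and 0.306 FPKM in the 2 libraries. The higher Leaf value was under 0.2 FPKM for 23 genes and 0.5 FPKM or more for 20. Both Leaf libraries were listed at 0 for 6 genes, 1 of the 2 for 8 genes and neither for 41. A value listed at 0 in files without counts can be a failed estimate, so no fold is given against it.

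**Figure D1:**
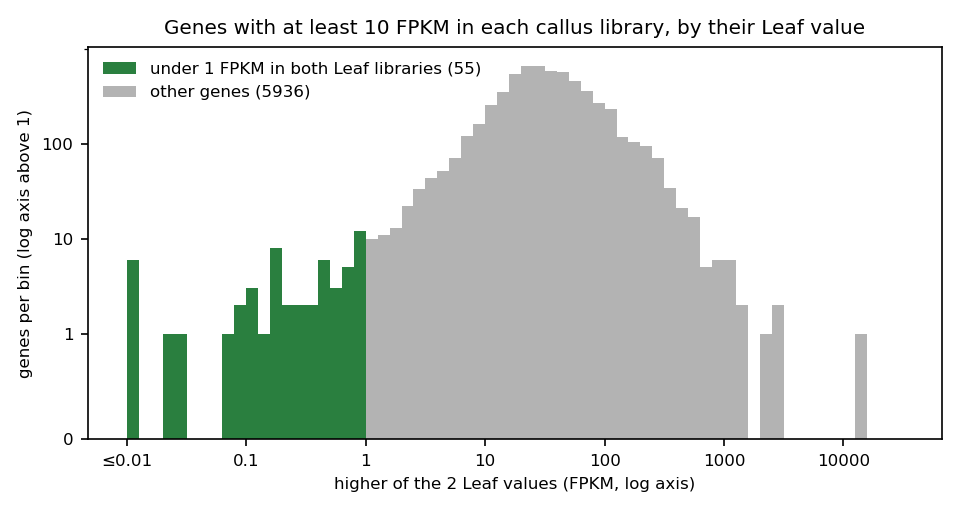
Number of genes (vertical axis, log above 1) in bins of the higher of the 2 Leaf values in FPKM (horizontal log axis), for the 5991 genes with at least 10 FPKM in each callus library. The 55 genes under 1 FPKM (green) form the thin left tail of the distribution, and the 6 genes listed at 0 in both Leaf libraries stand in its first bin.

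The set carried a far smaller part of the FPKM sum in Leaf than in callus, as its rule requires, and its part also differed among callus types. The 55 genes held 0.00317% and 0.00316% of the Leaf sums, 0.682% and 0.696% of the Callus III sums, 1.05% and 1.29% of the Callus II sums, and 2.70% and 2.21% of the Callus I sums. Both Callus I libraries were the highest. A single short gene, Sobic.002G349300.v3.2, held much of that: without it the set held 0.640% and 0.655% of the Callus III sums, 0.934% and 1.16% of the Callus II sums, and 1.49% and 1.46% of the Callus I sums. FPKM weights short genes, so these are not shares of reads. The median gene of the set had 27.7 and 38.2 FPKM in Callus III, 74.4 and 95.3 FPKM in Callus II, and 122 and 82.2 FPKM in Callus I.

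**Figure D2:**
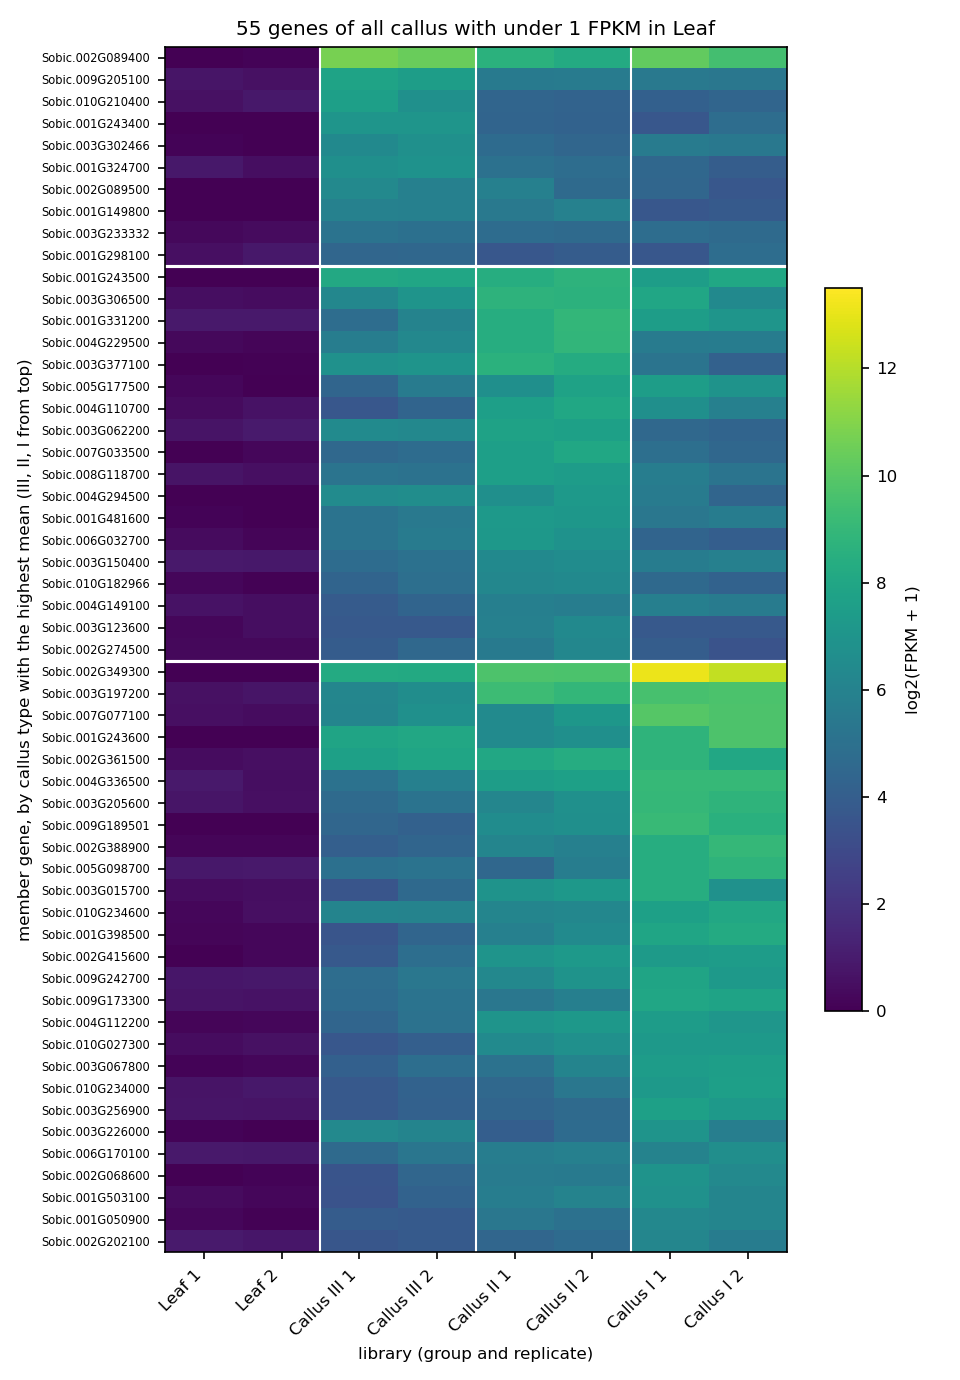
Level of each of the 55 genes (rows) in each library (columns) as log2(FPKM + 1), with genes grouped by the callus type that had the highest mean and ordered by callus mean within each block. The 2 Leaf columns are dark throughout, and the blocks with the highest mean in Callus III, Callus II and Callus I hold 10, 18 and 27 genes.

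The most abundant gene was Sobic.002G349300.v3.2 (chromosome 2, bases 71409007 to 71409180), a locus of only 174 bp. Both Leaf libraries listed it at 0, and it had 308 and 295 FPKM in Callus III, 834 and 804 FPKM in Callus II, and 8647 and 4906 FPKM in Callus I. The 3 callus types did not overlap, with Callus I highest. For so short a locus the FPKM depends strongly on the length correction, whose effect was not tested.

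Sobic.002G089400.v3.2 (chromosome 2, bases 9375101 to 9375864) came next by mean callus level. It had 0 and 0.0939 FPKM in Leaf, 1725 and 1361 FPKM in Callus III, 399 and 299 FPKM in Callus II, and 1227 and 706 FPKM in Callus I. Its lowest callus value was 3183 times its highest Leaf value, the widest gap among the 49 genes with any Leaf value above 0, for which the median was 56.4 times.

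Of the 10 genes with the highest mean callus level, 6 had their highest group mean in Callus I, 3 in Callus II and 1, Sobic.002G089400.v3.2, in Callus III. Sobic.003G197200.v3.2 (chromosome 3, bases 52245550 to 52247003) had 0.503 and 0.669 FPKM in Leaf, 72.3 and 97.4 FPKM in Callus III, 603 and 493 FPKM in Callus II, and 762 and 804 FPKM in Callus I. Sobic.007G077100.v3.2 (chromosome 7, bases 8908773 to 8909761) had 0.444 and 0.345 FPKM in Leaf, 68.5 and 108 FPKM in Callus III, 87.2 and 139.9 FPKM in Callus II, and 982 and 851 FPKM in Callus I. Callus III and Callus II thus overlapped for this gene while both Callus I libraries lay far above them. Sobic.004G336500.v3.2 (chromosome 4, bases 66846803 to 66847970) had 0.885 and 0.434 FPKM in Leaf, 32.7 and 58.9 FPKM in Callus III, 182 and 205 FPKM in Callus II, and 528 and 520.5 FPKM in Callus I, in steps that did not overlap. Sobic.001G243600.v3.2, another of the 6, is described with its neighbours, and Sobic.002G361500.v3.2 with the steadiest genes.

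One of the 3 with the highest mean in Callus II, Sobic.001G243500.v3.2, is also described with its neighbours. Sobic.003G306500.v3.2 (chromosome 3, bases 63587722 to 63591672) had 0.416 and 0.373 FPKM in Leaf, 75.9 and 125 FPKM in Callus III, 425 and 405 FPKM in Callus II, and 255 and 84.0 FPKM in Callus I. The Callus I replicates of this gene lay farther apart than those of the other groups. Sobic.001G331200.v3.2 (chromosome 1, bases 61899347 to 61901912) had 0.902 and 0.881 FPKM in Leaf, 27.7 and 65.4 FPKM in Callus III, 342 and 497 FPKM in Callus II, and 179 and 133 FPKM in Callus I. In all, 26 of the 55 genes had a mean callus level of at least 100 FPKM.

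Position along the chromosomes brought out 1 run of 3 neighbouring genes and 1 adjacent pair, and together these held 4 of the 6 genes listed at 0 in both Leaf libraries. How often other genes adjoin in this way was not computed, so no clustering is read from these counts. The run lies on chromosome 1 and spans 91.9 kb. The first gene, Sobic.001G243400.v3.2 (25200840 to 25202056), stood at 0 in both Leaf libraries and had 132 and 129.7 FPKM in Callus III, 19.4 and 17.7 FPKM in Callus II, and 11.8 and 27.4 FPKM in Callus I. The second, Sobic.001G243500.v3.2 (25222327 to 25223374), was listed at 0 in Leaf and had 281 and 252 FPKM in Callus III, 339 and 423 FPKM in Callus II, and 183 and 262 FPKM in Callus I. The third, Sobic.001G243600.v3.2 (25291832 to 25292715), was listed at 0 in Leaf and had 239 and 272 FPKM in Callus III, 86.4 and 106 FPKM in Callus II, and 443 and 856 FPKM in Callus I. Each of these neighbours thus had its highest mean in a different callus type.

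Tests between callus types separated part of that order. Callus III was above Callus II by 2.76 ± 0.33 on the log2 scale for Sobic.001G243400.v3.2 (SE, n = 2 per group; adjusted p = 0.000605 by limma with the Benjamini-Hochberg method), and above Callus I by 2.80 ± 0.33 (limma adjusted p = 0.000337). For Sobic.001G243500.v3.2, Callus II was above Callus I by 0.79 ± 0.19 (limma adjusted p = 0.00889), while Callus III minus Callus II was -0.51 ± 0.19 (limma adjusted p = 0.0554) and did not pass. Callus I exceeded both others for Sobic.001G243600.v3.2, with Callus III minus Callus I at -1.27 ± 0.29 (limma adjusted p = 0.00726) and Callus II minus Callus I at -2.68 ± 0.29 (limma adjusted p = 0.000198).

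None of the 3 genes on each side of the run met both limits of the set. Sobic.001G243150.v3.2 had 1.66 and 1.34 FPKM in Leaf. Sobic.001G243200.v3.2 was high in every library, at 90.5 and 81.3 FPKM in Leaf and 30.1 to 72.9 FPKM in callus. Sobic.001G243300.v3.2, just before the run, had 2.24 and 1.70 FPKM in Leaf and at most 1.25 in any callus library. Sobic.001G243666.v3.2, just after it, was listed at 0 in all 8 libraries. The next gene, Sobic.001G243732.v3.2, was likewise low in Leaf and higher in Callus III and Callus II, but far under 10 FPKM. It had 0.0792 and 0.0823 FPKM in Leaf, 1.82 and 1.19 FPKM in Callus III, 0.904 and 1.09 FPKM in Callus II, and 0.0334 and 0 FPKM in Callus I. Farther on, Sobic.001G243800.v3.2 had 2.08 and 1.77 FPKM in Leaf, 10.5 and 11.8 FPKM in Callus III, 13.6 and 15.1 FPKM in Callus II, and 0.617 and 0 FPKM in Callus I. No sequence was used here, so whether the neighbours are similar copies that could share reads was not tested.

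**Figure D3:**
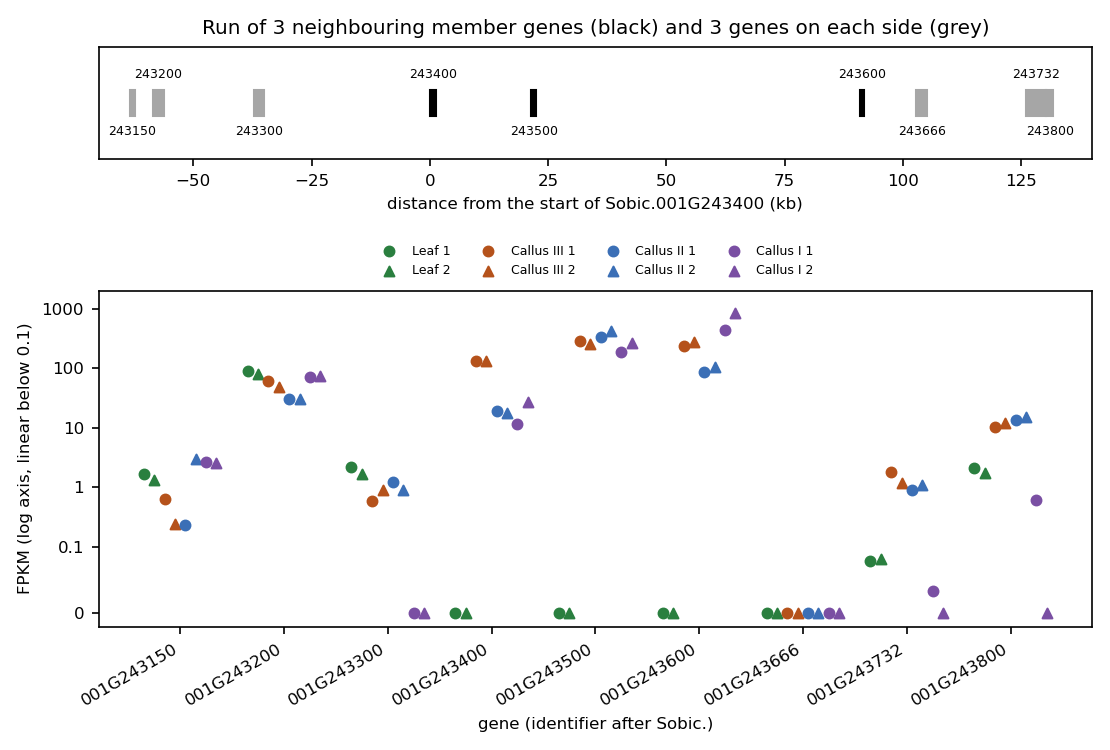
Upper panel: the 3 neighbouring genes of the set (black) and the 3 genes on each side (grey), drawn to scale by distance in kb from the start of the first. Lower panel: FPKM of these 9 genes in each library (log axis, linear below 0.1; circles are replicate 1 and triangles replicate 2), where the 3 genes are listed at 0 in Leaf and at 11.8 FPKM or more in every callus library.

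The adjacent pair on chromosome 2 consisted of Sobic.002G089400.v3.2, given above, and Sobic.002G089500.v3.2 (9378429 to 9378911). Sobic.002G089500.v3.2 was listed at 0 in Leaf and had 81.2 and 58.6 FPKM in Callus III, 57.8 and 24.9 FPKM in Callus II, and 21.0 and 11.6 FPKM in Callus I. Both genes had their highest mean in Callus III. They differed in the other types, since Callus II was lowest for the first and Callus I for the second. Besides these 5 genes, only Sobic.010G234000.v3.2 and Sobic.010G234600.v3.2 had another gene of the set within 10 genes, with 5 genes between them.

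By chromosome, the set was drawn from all 10. Chromosome 3 held 13 of the 55 genes, which is 1.44% of its 904 genes with at least 10 FPKM in each callus library. Chromosome 1 held 11 (0.931% of 1182), chromosome 2 held 9 (1.13% of 796), and chromosome 8 held only 1 (0.375% of 267). The other chromosomes held 2 to 6.

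The 55 genes varied strongly among the callus libraries, although each had to reach 10 FPKM in all of them. Their range over the 6 libraries includes the spread between replicates as well as differences between callus types. The highest of the 6 callus values was a median of 9.79 times the lowest, against 2.80 times for the 535 genes with Leaf values of 1 to under 10 FPKM and 2.03 times for the 5401 with at least 10 FPKM. A ratio of 10 or more was found for 26 of the 55 (47.3%), against 8.60% and 1.89% of those classes. The 55 genes were also more abundant, with a median callus mean of 93.5 FPKM against 28.8 and 34.4 FPKM, which leaves more room above the 10 FPKM that the rule sets. The part of that difference in level was not tested. No test was made of these ratios, since the classes were formed after selection on the same callus values.

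The loci of the set were short as well. Their median length was 1460 bp (quartiles 986.5 and 2272.5 bp), against 3032 bp for the genes with Leaf values of 1 to under 10 FPKM and 4272 bp for those with at least 10 FPKM. Loci under 2000 bp numbered 37 of 55 (67.3%), 155 of 535 (29.0%) and 490 of 5401 (9.07%). A locus includes introns, so it is not the length by which FPKM was scaled. Under 500 bp were 4 of the 55 (7.27%), against 0.724% of the 5936 others and 2.93% of all 34129 genes. Over all those genes the median length was 2824 bp, which is shorter than in either class with higher Leaf values.

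**Figure D4:**
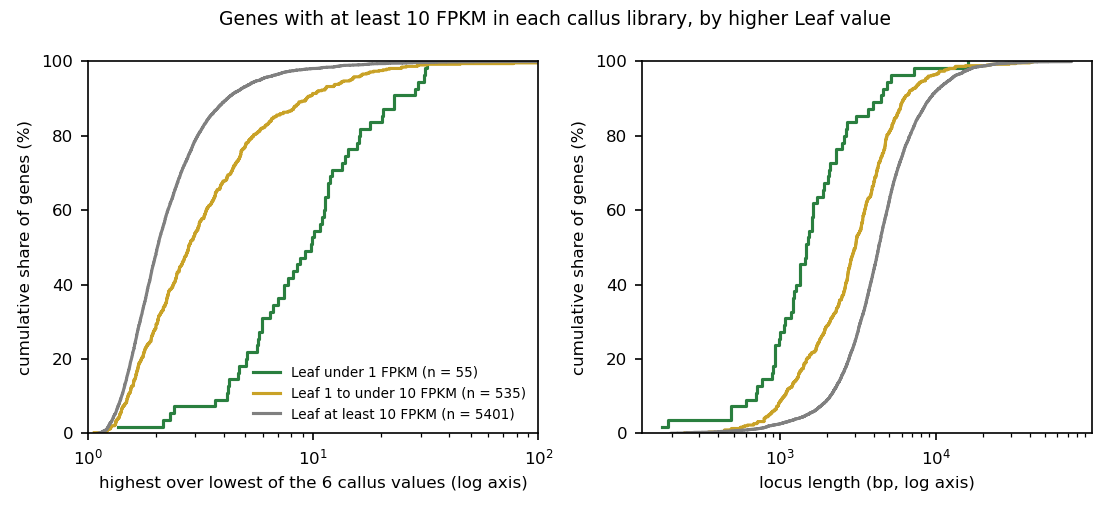
Cumulative share of genes (vertical axis, percent) by the ratio of the highest to the lowest of the 6 callus values (left, log axis) and by locus length in bp (right, log axis), for genes with at least 10 FPKM in each callus library. The 55 genes under 1 FPKM in Leaf (green) lie to the right in the ratio (median 9.79) and to the left in length (median 1460 bp) of the classes with higher Leaf values.

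Callus III most often held the lowest level of a gene of the set. The lowest group mean of a gene was in Callus III for 34 of the 55, in Callus II for 7 and in Callus I for 14. The highest was in Callus III for 10, in Callus II for 18 and in Callus I for 27. Shares of all genes were not computed for these counts of means, so they only describe the set. The orders that follow have such shares, and low levels in Callus III were common among all genes. Both Callus III libraries lay below all 4 other callus libraries for 28 genes (50.9%), where the same held for 26.8% of all 23166 genes tested and for 33% of the 5936 others at 10 FPKM. Both Callus I libraries lay above the other 4 for 23 genes (41.8%), against 25.9% of all genes tested and 23.5% of those others. For 20 genes (36.4%) the 3 types fell in separate steps, Callus I above Callus II above Callus III, against 12.2% and 13.1%. With median-ratio scaling of the libraries, these 3 orders were found for 22 genes (40%), 26 genes (47.3%) and 17 genes (30.9%), against 18.6%, 29.7% and 10.5% of all genes tested.

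The shares of other orders, or their backgrounds, moved with the scaling of the libraries. Both Callus II libraries were above the other 4 for 16 genes (29.1%), against 37.1% of all genes tested and 45.1% of the others at 10 FPKM. That shortfall turned with median-ratio scaling, to 25.5% against 22.6% and 22.2%, but not with equal FPKM sums, at 25.5% against 29.8% and 34.0%. Callus III was above the rest for 8 (14.5%), against 13.3% and 8.83%. This too turned, to 16.4% against 20.4% and 19.3% with median-ratio scaling and 16.4% against 19.4% and 18.6% with equal sums. Callus I was below the rest for 10 (18.2%), against 27.8% and 24.3%, and Callus II for 4 (7.27%), against 12% and 9.87%. With median-ratio scaling the count for Callus II became 8 (14.5%), and its backgrounds 20.6% and 26.7%. Both of these orders stayed less frequent in the set than in either background under both scalings.

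Differences between callus types were tested in limma on log2(FPKM + 1) over the 23166 genes that reached 1 FPKM in 2 or more libraries. The threshold for a call was 0.05 on the p-value adjusted by Benjamini-Hochberg within each comparison. All 55 genes entered this test, which follows from their callus levels. The rule did not use differences between callus types, beyond the floor of 10 FPKM. It did bound the Leaf values of the 55 genes, and the spread between Leaf libraries enters the variance of each gene. Each pair of these comparisons shares the libraries of 1 callus type, so they are given side by side and are not separate evidence.

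Between Callus III and Callus II, most of the set was lower in Callus III. Limma called 37 of the 55 genes lower (67.3%; background 42.3% of all genes tested) and 8 higher (14.5%; background 15.1%), and 10 did not pass. The other genes at 10 FPKM in all callus were called lower in 51.5% and higher in 10.6%. The median log2 difference of the 55 was -1.54, against -0.33 over all genes tested. Scaling by the median ratio moved these to -1.09 and 0, and equal FPKM sums without the 100 highest genes moved them to -1.25 and -0.09, so the set lay below the median of all genes by more than 1 on the log2 scale under each. With median-ratio scaling limma called 31 lower (56.4%; background 23.1%) and 10 higher (18.2%; background 22.8%).

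The most lowered gene was Sobic.004G110700.v3.2 (chromosome 4, bases 10811044 to 10812027). It had 0.313 and 0.590 FPKM in Leaf, 11.6 and 19.3 FPKM in Callus III, 199 and 264 FPKM in Callus II, and 106 and 58.0 FPKM in Callus I. Callus III minus Callus II was -3.85 ± 0.34 (SE, n = 2 per group; limma adjusted p = 0.000181). Sobic.001G331200.v3.2, whose values are given above, was the next, at -3.24 ± 0.39 (limma adjusted p = 0.000602).

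The gene most raised in Callus III was Sobic.010G210400.v3.2 (chromosome 10, bases 55403817 to 55405017). It had 0.514 and 0.826 FPKM in Leaf, 195 and 109.9 FPKM in Callus III, 20.2 and 18.3 FPKM in Callus II, and 16.4 and 20.1 FPKM in Callus I. Callus III minus Callus II was 2.86 ± 0.27 (limma adjusted p = 0.000227) and the difference from Callus I was 2.94 ± 0.27 (limma adjusted p = 9.57e-05). Its locus shares 585 bp with Sobic.010G210300.v3.2, which ran the other way among callus types, at 7.67 and 7.62 FPKM in Callus III, 39.2 and 37.8 FPKM in Callus II, and 34.2 and 40.4 FPKM in Callus I. How reads were divided between the overlapping loci is not given. Sobic.001G243400.v3.2, the first gene of the run on chromosome 1, was the next highest.

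Callus III was also mostly the lower when set against Callus I: limma called 30 of the 55 genes lower (54.5%; background 33.2%) and 11 higher (20%; background 26.9%), and 14 did not pass. The other genes at 10 FPKM in all callus were called lower in 33.6% and higher in 20.5%. The median difference of the 55 was -1.40, against -0.03 over all genes tested. It was -1.28 against 0.02 with median-ratio scaling and -1.13 against 0.12 with equal sums. With equal sums 30 genes were called lower (54.5%; background 27.2%) and 15 higher (27.3%; background 35.3%).

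Sobic.009G189501.v3.2 (chromosome 9, bases 54141978 to 54142166, 189 bp) fell the most. Both Leaf libraries listed it at 0, and it had 21.2 and 17.6 FPKM in Callus III, 93.0 and 103 FPKM in Callus II, and 546 and 378 FPKM in Callus I. The difference of Callus III minus Callus I reached -4.49 ± 0.19 (SE, n = 2 per group; limma adjusted p = 3.19e-06). Sobic.002G388900.v3.2 (chromosome 2, bases 74261616 to 74263685) had 0.155 and 0.141 FPKM in Leaf, 16.0 and 20.3 FPKM in Callus III, 69.3 and 58.8 FPKM in Callus II, and 338 and 512 FPKM in Callus I. Its difference was -4.45 ± 0.21 (limma adjusted p = 5.56e-06). Both genes lay in 3 separate steps, as did Sobic.002G349300.v3.2. The 2 largest rises in Callus III over Callus I were again those of Sobic.010G210400.v3.2 and Sobic.001G243400.v3.2.

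Between Callus II and Callus I the set was more evenly divided. Limma called 23 genes lower in Callus II (41.8%; background 25.4%) and 19 higher (34.5%; background 39.1%), and 13 did not pass. Among the other genes at 10 FPKM in all callus, 21.4% were lower and 42.4% higher. The median difference of the 55 was -0.26, against 0.18 over all genes tested. It was -0.59 against 0 with median-ratio scaling and -0.29 against 0.15 with equal sums. With median-ratio scaling 25 genes were called lower (45.5%; background 32.4%) and 15 higher (27.3%; background 29.7%).

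Sobic.005G098700.v3.2 (chromosome 5, bases 16130227 to 16131153) was the most lowered in Callus II. It had 0.834 and 0.913 FPKM in Leaf, 30.7 and 34.6 FPKM in Callus III, 21.8 and 52.7 FPKM in Callus II, and 345 and 445 FPKM in Callus I. Callus II minus Callus I was -3.49 ± 0.36 (SE, n = 2 per group; limma adjusted p = 0.000178), and Callus III and Callus II overlapped. Sobic.007G077100.v3.2, given above, followed at -3.04 ± 0.27 (limma adjusted p = 9.52e-05).

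In the other direction, Sobic.003G377100.v3.2 (chromosome 3, bases 69144515 to 69145942) had 0 and 0.0701 FPKM in Leaf, 111 and 128 FPKM in Callus III, 391 and 313 FPKM in Callus II, and 36.1 and 17.2 FPKM in Callus I. For Callus II minus Callus I this gave 3.76 ± 0.31 (limma adjusted p = 6.32e-05), with Callus III between the others. Sobic.003G062200.v3.2 (chromosome 3, bases 5434604 to 5435933) had 0.624 and 0.972 FPKM in Leaf, 85.9 and 79.2 FPKM in Callus III, 216 and 199.9 FPKM in Callus II, and 22.4 and 19.3 FPKM in Callus I. Its difference was 3.26 ± 0.14 (limma adjusted p = 4.97e-06), and its 3 callus types also lay in steps without overlap.

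**Figure D5:**
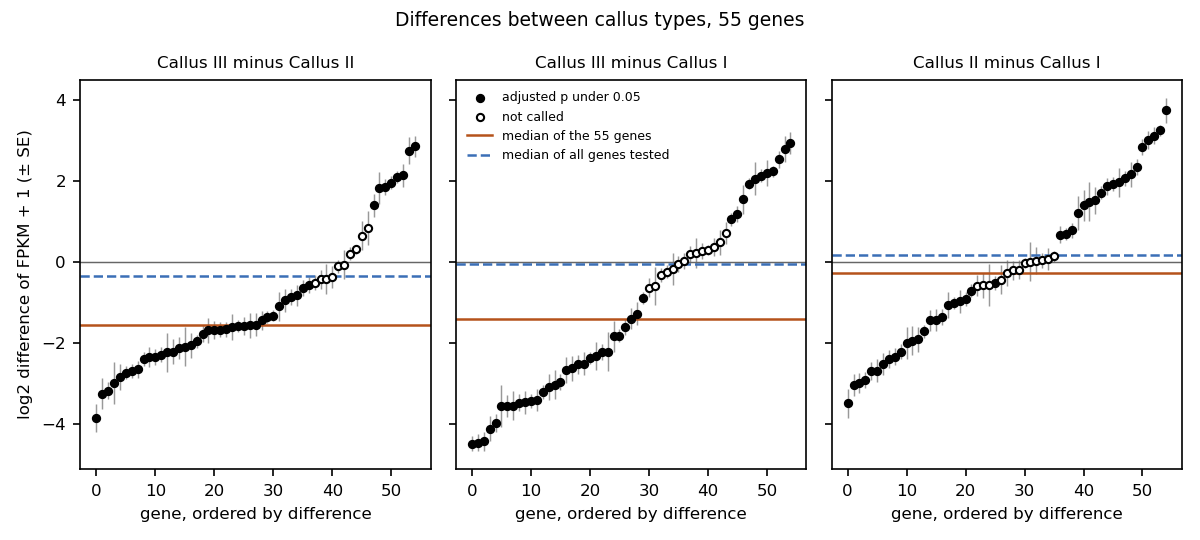
Log2 difference of FPKM + 1 (± SE, n = 2 per group) for each of the 55 genes, ordered within each of the 3 comparisons of callus types, with filled points for limma adjusted p under 0.05. The median of the set (solid line) lies at -1.54, -1.40 and -0.26, below that of all genes tested (dashed line) at -0.33, -0.03 and 0.18.

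In only 1 gene of the set was the highest callus value under 2 times the lowest. The steadiest was Sobic.003G233332.v3.2 (chromosome 3, bases 57232004 to 57232483), with 0.203 and 0.306 FPKM in Leaf, 33.7 and 30.4 FPKM in Callus III, 26.4 and 24.7 FPKM in Callus II, and 27.0 and 24.7 FPKM in Callus I. Its highest callus value was 1.37 times its lowest. Its locus of 480 bp shares 119 bp with Sobic.003G233400.v3.2, which had 5.23 and 5.54 FPKM in Leaf and 3.92 to 9.0 FPKM in callus. None of the 3 callus comparisons called it, with differences of 0.32 ± 0.12 for Callus III minus Callus II, 0.30 ± 0.12 for Callus III minus Callus I, and -0.02 ± 0.12 for Callus II minus Callus I.

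Sobic.002G361500.v3.2 (chromosome 2, bases 72312731 to 72315380), the next steadiest, stood at a much higher level. It had 0.349 and 0.480 FPKM in Leaf, 206 and 246 FPKM in Callus III, 277 and 330.0 FPKM in Callus II, and 443 and 274 FPKM in Callus I. Its largest difference, Callus III minus Callus I at -0.63 ± 0.23 (SE, n = 2 per group), just missed the threshold (limma adjusted p = 0.0501). Sobic.001G298100.v3.2 (chromosome 1, bases 57872662 to 57873561) had the lowest mean callus level of the set. It had 0.456 and 0.826 FPKM in Leaf, 20.7 and 21.6 FPKM in Callus III, 11.7 and 14.5 FPKM in Callus II, and 11.5 and 27.7 FPKM in Callus I, and was not called in any callus comparison.

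Sobic.001G243500.v3.2 of the run on chromosome 1 and Sobic.003G150400.v3.2 (chromosome 3, bases 15849087 to 15850676) completed the 5 steadiest. Sobic.003G150400.v3.2 had 0.869 and 0.809 FPKM in Leaf, 26.1 and 32.1 FPKM in Callus III, 82.5 and 95.3 FPKM in Callus II, and 50.02 and 59.0 FPKM in Callus I. Even here the callus types did not overlap, with Callus II highest, and the highest callus value was 3.65 times the lowest. Limma called the gene in all 3 callus comparisons, with the highest adjusted p at 0.00486 for Callus II minus Callus I. At the other end, 9 genes had a highest callus value at least 20 times the lowest, with Sobic.002G388900.v3.2 the widest at 32.0 times.

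The overlap of loci touched 2 further genes of the set. Sobic.003G067800.v3.2 shares 750 bp with Sobic.003G067900.v3.2, which was likewise low in Leaf, at 0.131 and 0.506 FPKM, and ran from 8.54 to 51.9 FPKM in callus. Sobic.002G068600.v3.2, the longest locus at 15999 bp, shares 1430 bp with a locus that stayed at or under 0.159 FPKM in all 8 libraries. In all, 4 of the 55 loci (7.27%) overlapped another, against 10.1% of the 5936 others.

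The thresholds cut through a continuous range. Just inside the callus limit, the lowest callus value was 10.04 FPKM for Sobic.002G274500.v3.2, 10.1 for Sobic.001G503100.v3.2 and 10.4 for Sobic.002G068600.v3.2. Just outside it stood Sobic.006G053800.v3.2 at 9.97, Sobic.010G198500.v3.2 at 9.91 and Sobic.007G059200.v3.2 at 9.84 FPKM. Just inside the Leaf limit, the higher Leaf value was 0.972 FPKM for Sobic.003G062200.v3.2, 0.952 for Sobic.002G202100.v3.2 and 0.913 for Sobic.005G098700.v3.2. Just outside it stood Sobic.003G432700.v3.2 at 1.03, Sobic.001G038900.v3.2 at 1.04 and Sobic.006G092500.v3.2 at 1.04 FPKM. Sobic.003G432700.v3.2 had at least 133 FPKM in every callus library and so missed the set by its Leaf value alone.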

How the data were processed

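The deposited files give 1 FPKM value per gene and library, per the file headers, as the authors calculated it, beside the identifiers and loci of 34129 genes. Trimmomatic, TopHat2 2.0 and Cuffdiff appear, without roles, in the submitters' processing notes. Not given in the sources used here are the genome build, the annotation, the filters and the use of strand. The 8 files were joined by identifier. Locus starts were taken to count from 0, and coordinates are printed with 1 added. With 1 added, 884 of the 34129 starts equalled a gene start of an NCBIv3 gene table, against 345 as filed. Most starts matched in neither form, so this choice rests on a small part of the loci. None of the identifiers (0) occurred in that table of 32945 genes, so 20 gene lists defined by words in gene descriptions could not be applied.

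Genes that reached 1 FPKM in 2 or more libraries were fitted as log2(FPKM + 1), with a mean for each group over all 8 libraries, by limma 3.58.1 under R 4.3.3, using moderated variances with a trend and 2-sided tests, checked on simulated data. Fold changes on this scale understate the change of genes with low values. With 2 libraries in each group, the smallest 2-sided p of a permutation is 0.333. Calls therefore rest on the limma model, which joins each gene's own spread over the 4 groups with variance shared across genes. The labels call the replicates biological without saying if separate cultures were used, so p-values may measure technical spread.

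The rule named the 10 genes with the highest callus mean, the most changed called genes without overlap in each direction (2 printed, since identifiers had no names), the 5 steadiest, those beside each threshold, and runs of 3 or more neighbours. Further genes (the adjacent pair on chromosome 2, the pair on chromosome 10, flanking genes and overlapping loci) were chosen after their values were seen. The set and the lists were chosen with earlier results of these data known. Alternatives were other pseudocounts, filters, scalings, variance trend and library sets, a replicate block, and leaving out each library.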

Additional observations from a re-analysis of the deposited data

How the results depend on the processing

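The set had 63 genes with median-ratio scaling and 62 with equal FPKM sums, and each of these kept 54 of the 55. It had 57 to 77 genes when 1 library was left out, and the highest count came without Callus III replicate 1. Leaving out a library removes a condition of the rule, so this count could not fall below 55. For the counts of called genes, which were always made on the same 55 genes, all 16 alternatives stayed within 1.5 times the reported value. Shares of all genes tested were not computed with a library left out, so those counts carry no background. Leaving out 1 library gave 8 to 9 higher and 30 to 39 lower for Callus III minus Callus II, 11 to 13 higher and 30 to 33 lower for Callus III minus Callus I, and 15 to 19 higher and 20 to 25 lower for Callus II minus Callus I. All 12 named differences between callus types kept their direction under every alternative, and stayed called under the other pseudocount, filters and scalings. They had been chosen as the largest called differences without overlap, so this says little of the other calls.

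Replicate numbers are shared by the groups, and nothing in the labels says what a number marks. Deviations of same-numbered libraries from their group means correlated at -0.018, -0.043 and 0.018 across 23166 genes in the 3 callus comparisons, so the numbers are not taken as pairs. A replicate block gave 9 higher and 36 lower, 12 higher and 30 lower, and 19 higher and 24 lower genes in the 3 comparisons in the order above. A fit of the callus libraries alone gave 8 higher and 36 lower, 11 higher and 30 lower, and 19 higher and 22 lower. Shares of all genes tested were not computed for the block or the callus fit, so these counts carry no background.

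Counts of genes by the order of callus levels, with alternatives added after the data were seen, stayed within 1.5 times except that of genes with Callus II below the rest, which was 8 in place of 4 with median-ratio scaling, while the share of the other genes at 10 FPKM in all callus with that order became 26.7% in place of 9.87%. Absolute depth is unknown, so a Leaf value near 0 cannot be told from a value missed at this depth.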
